A study of Mus musculus with 4 samples.

Results

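The transcriptional state of control HT-22 cells after oxygen and glucose deprivation (OGD) was described from 2 of the 4 RNA-Seq libraries of the series, Ctrl and Ctrl+OGD, each the only library of its group. HT-22 is an immortalized cell line derived from mouse hippocampal neurons. The Ctrl cells carried a negative control lentivirus and received no treatment, and their genotype is recorded as wild type. The Ctrl+OGD cells (titled Ctrl-OGD in the sample records) were the same cells after 2 h of OGD, in a chamber of nitrogen and carbon dioxide with medium free of serum and glucose, followed by 24 h in normal medium. The remaining libraries, PGC-1α (titled PGC-A) and PGC-1α+OGD (titled PGC-OGD), came from cells with a lentivirus that overexpresses PGC-1α, without and with the same OGD, and are given beside the control cells because this pair has no library in common with Ctrl and Ctrl+OGD. The comparison asks which genes differ in control cells one day after a short deprivation, which the study used to mimic low cerebral blood flow in culture.

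Of 11502 gene symbols in the deposited table, 10604 averaged 1 FPKM or more across the 4 libraries and were compared. FPKM is the number of fragments scaled by transcript length and by the mapped fragments of a library. All fold changes are given on the log2(FPKM + 1) scale, on which genes with low values appear to change less than they did. Genes past 1.5-fold are called higher or lower, and the verbs rose and fell are used for these alone. No group has a second library, so the differences could not be set against a spread between replicates, and there are no p values. Reads per library are unknown. Library totals lay between 331892 and 353381 FPKM. In bulk RNA, a smaller number of cells of one kind and less RNA per cell cannot be told apart.

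The sample records name the cells hippocampal neurons, and most markers of mature neurons have no row to bear this out. Of 22 neuron markers, 19 have no row in the table and 1, Syp, averaged less than 1 FPKM. Only Eno2, the neuronal enolase, with 1.20 FPKM in Ctrl and 2.81 FPKM in Ctrl+OGD, and Camk2a, a calcium-dependent kinase, with 7.31 and 4.40 FPKM, were compared. Among 27 genes of glutamate receptors and transporters, 24 have no row. By contrast, 8 of 13 fibroblast and mesenchymal markers were compared, while 4 have no row and 1 averaged less than 1 FPKM. Among those compared, Vim, the intermediate filament of mesenchymal and immature cells, stood at 398 FPKM in Ctrl and 508 FPKM in Ctrl+OGD. The collagen genes Col1a1 (175 and 169 FPKM) and Col1a2 (248 and 249 FPKM) were also abundant. The name hippocampal neurons is thus not borne out by these markers. A gene without a row may be low or filtered, so the missing rows are not a measured absence. Ppargc1a, which encodes PGC-1α and is the gene overexpressed in the other cells, stood at 0.900 FPKM in Ctrl and 0.103 FPKM in Ctrl+OGD, against 35.1 FPKM in PGC-1α and 8.41 FPKM in PGC-1α+OGD, so the level of this gene followed the labels.

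During OGD, cells lose oxidative phosphorylation for want of oxygen and glycolysis for want of glucose, so that ATP falls, and protein folding in the endoplasmic reticulum and growth factor signaling are disturbed. Acute hypoxia stabilizes hypoxia-inducible factor (HIF), which raises glycolytic genes, and misfolded protein activates the heat shock and unfolded protein responses. Return to oxygen, glucose and serum ends the deprivation, and serum by itself induces immediate early genes for a short time and drives growth and division over longer times.

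Ctrl+OGD and Ctrl differed by at least 1.5-fold in 13.9% of the genes compared. Higher genes numbered 657 (6.2%) and lower genes 818 (7.71%). By 2-fold or more, 158 genes were higher and 206 lower, and by 4-fold or more, 16 and 27. The median log2 fold change over all genes was -0.02, and its 5th and 95th percentiles were -0.72 and 0.65. The balance of higher and lower genes depends on scaling: 44.5% of the differing genes were higher with the values as deposited, and 31.2% were higher when the columns were set to equal totals. It also moved with level, as the median log2 fold change was -0.14 among genes with a mean of 1 to 5 FPKM and 0.18 among those of at least 100 FPKM. It moved with transcript length as well, with medians of 0.09 in the tertile of shortest transcripts and -0.12 in that of the longest. These shifts are the background against which the gene groups below are read.

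**Figure D1:**
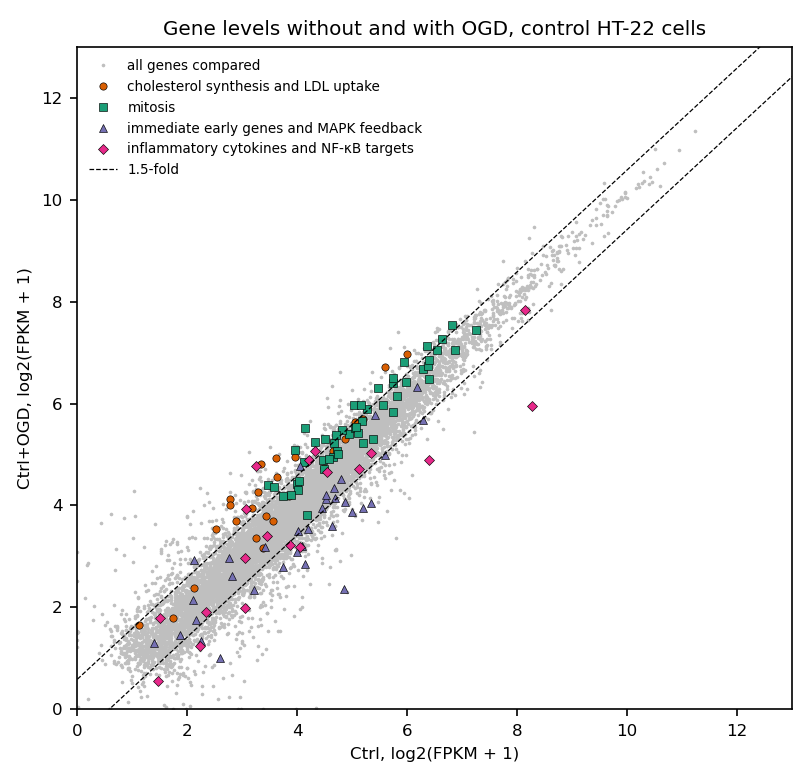
Each point is 1 of the 10604 genes, with log2(FPKM + 1) in Ctrl on the x axis and in Ctrl+OGD on the y axis, 1 library each, and dashed lines at 1.5-fold. Sterol synthesis (orange circles) and mitosis genes (green squares) mostly lie above the diagonal, with 13 of 25 and 19 of 50 past the upper line, and immediate early genes (violet triangles) mostly lie at or below the diagonal.

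To show the regulatory sequence of some of these genes, 6 promoters are printed. They were chosen because several of the groups described below are known to be driven through short motifs: sterol regulatory elements in sterol genes, CCAAT boxes and cell cycle homology regions in mitosis genes, CArG boxes, where serum response factor binds, in immediate early genes, and heat shock elements in chaperone genes. Each line gives the 250 bases before the RefSeq start site (GRCm38.p6), 5′ to 3′ on the strand of the gene, and capitals mark the matches of that gene's motifs on either strand. In Hmgcs1 the 3 short stretches in capitals are CCAAT boxes read on the opposite strand, and the long one is the sterol regulatory element.
Hmgcs1 (chr13:119690101-119690350, plus strand): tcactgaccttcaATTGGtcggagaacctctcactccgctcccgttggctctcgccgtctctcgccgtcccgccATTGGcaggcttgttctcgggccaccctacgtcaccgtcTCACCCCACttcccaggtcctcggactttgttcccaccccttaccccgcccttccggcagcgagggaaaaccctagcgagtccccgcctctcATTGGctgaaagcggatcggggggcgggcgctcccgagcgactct
Plk1 (chr7:122159185-122159434, plus strand): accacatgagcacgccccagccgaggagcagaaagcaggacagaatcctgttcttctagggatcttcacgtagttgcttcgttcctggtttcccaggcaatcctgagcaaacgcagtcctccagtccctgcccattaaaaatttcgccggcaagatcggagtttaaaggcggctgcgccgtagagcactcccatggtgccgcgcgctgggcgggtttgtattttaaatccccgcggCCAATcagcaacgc
Cdc20 (chr4:118437344-118437593, minus strand): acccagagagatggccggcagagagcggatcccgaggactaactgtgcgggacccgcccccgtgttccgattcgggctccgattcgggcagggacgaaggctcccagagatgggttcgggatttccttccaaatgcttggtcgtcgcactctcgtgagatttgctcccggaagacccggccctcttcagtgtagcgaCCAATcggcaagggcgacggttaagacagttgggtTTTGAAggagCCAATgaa
Ccnb2 (chr9:70421555-70421804, minus strand): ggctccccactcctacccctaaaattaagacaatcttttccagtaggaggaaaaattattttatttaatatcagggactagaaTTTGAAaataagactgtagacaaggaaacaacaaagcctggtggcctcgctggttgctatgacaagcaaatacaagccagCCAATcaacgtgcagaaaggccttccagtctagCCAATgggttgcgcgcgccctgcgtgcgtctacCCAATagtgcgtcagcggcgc
Dusp5 (chr19:53528895-53529144, plus strand): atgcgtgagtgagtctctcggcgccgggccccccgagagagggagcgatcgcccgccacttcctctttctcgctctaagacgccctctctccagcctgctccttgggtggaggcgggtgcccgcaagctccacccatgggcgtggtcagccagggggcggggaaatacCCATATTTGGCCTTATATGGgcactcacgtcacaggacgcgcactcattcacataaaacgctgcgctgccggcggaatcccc
Fkbp4 (chr6:128438657-128438906, minus strand): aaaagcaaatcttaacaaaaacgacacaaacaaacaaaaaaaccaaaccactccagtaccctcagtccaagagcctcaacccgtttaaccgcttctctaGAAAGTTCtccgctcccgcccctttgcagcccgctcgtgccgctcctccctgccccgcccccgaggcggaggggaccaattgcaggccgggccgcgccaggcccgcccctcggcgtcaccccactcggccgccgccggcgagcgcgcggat

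Motif counts were taken over the 7854 compared genes with such a promoter, on both strands. The sterol regulatory element was searched as TCACNCCAC, the CCAAT box as CCAAT, the cell cycle homology region as TTTGAA, the heat shock element as GAANNTTC, and the CArG box by its usual consensus. No matches of different motifs overlap in the 6 printed promoters. Of 39 mitosis promoters, 31 (79.5%) held a CCAAT box, against 38% of all promoters, and 14 (35.9%) held TTTGAA, against 10.3%. Hmgcs1 was the only one of 19 sterol promoters with TCACNCCAC (0.853% of all promoters), Dusp5 the only one of 20 immediate early and MAPK feedback promoters with a CArG box (1.01%), and 5 of 18 heat shock promoters held GAANNTTC (4.97%). A match describes the letters and not a bound site. The printed promoters all hold a match and are not typical of the sterol, immediate early and heat shock lists. In these lists the motif was in 1 of 8 promoters of higher sterol genes and 1 of 8 of lower immediate early genes. For higher heat shock genes it was in 1 of 4, whereas a CCAAT box was in 11 of 15 promoters of higher mitosis genes.

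Genes of cholesterol synthesis and LDL uptake had the highest median of the gene lists. Of 28 listed genes, 25 were compared and 13 were higher and 0 lower, a share of 52% against the 6.2% of all genes, with a median log2 fold change of 0.59. Msmo1, a sterol C4-methyl oxidase, was at 11.2, 29.4, 12.9 and 17.0 FPKM in Ctrl, Ctrl+OGD, PGC-1α and PGC-1α+OGD (1.32). Cyp51, the lanosterol demethylase, was at 62.9, 125, 72.4 and 119 FPKM (0.97). Fdps, the synthase of farnesyl pyrophosphate, was at 47.4, 104, 62.8 and 95.6 FPKM (1.12), and it shares exons with Gm43738. For Cyp51 and Fdps the levels after OGD were high in both kinds of cells. Hmgcs1, whose promoter is shown above, acts early in the pathway and was just past the threshold, at 32.2 FPKM in Ctrl and 48.8 FPKM in Ctrl+OGD (0.59). Only Ggps1, which makes the geranylgeranyl donor outside the sterol branch, was below 0, at -0.21 on the log2 scale. In PGC-1α+OGD against PGC-1α, where 3.82% of all genes were higher, 7 of the 25 genes were higher, all of them also higher in control cells, and the median was 0.36.

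All 50 listed mitosis genes were compared, and 19 (38%) were higher in Ctrl+OGD and 0 lower, with a median of 0.46. Plk1, the kinase that drives mitotic entry and spindle formation, was at 16.6 FPKM in Ctrl, 44.9 FPKM in Ctrl+OGD, 31.6 FPKM in PGC-1α and 41.7 FPKM in PGC-1α+OGD (1.38 in control cells). Cdc20, the activator of the anaphase-promoting complex, was at 31.6, 61.4, 47.3 and 62.6 FPKM in the same order (0.94). In both genes Ctrl was the lowest library, PGC-1α lay between, and the OGD libraries were the highest. Ccnb2 and Ccnb1, the B-type cyclins, rose from 52.4 to 90.0 FPKM (0.77) and from 21.8 to 38.3 FPKM (0.79), and Birc5, which encodes survivin, rose from 112 to 184 FPKM (0.71). The centromeric histone gene Cenpa rose from 10.0 to 20.1 FPKM (0.94). Bub3, of the spindle checkpoint, rose from 14.6 to 33.0 FPKM (1.13 summed, 0.43 by its highest transcript). The 2 mitosis genes below 0 were Nusap1 (-0.08) and Knl1 (-0.38). In PGC-1α+OGD against PGC-1α, 48 of the 50 were above 0 with a median of 0.25, and none passed 1.5-fold (0 higher and 0 lower).

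Of 50 genes of DNA replication and S phase compared, 9 (18%) were higher and 0 lower, with a median of 0.38. The subunits of replication protein A, which coats single-stranded DNA, led the group: Rpa2 was at 12.5 FPKM in Ctrl, 25.6 FPKM in Ctrl+OGD, 18.9 FPKM in PGC-1α and 20.7 FPKM in PGC-1α+OGD (0.98), and Rpa1, which shares exons with Gm47300, was at 23.3, 45.3, 29.4 and 25.5 FPKM (0.93). Mcm3, of the replicative helicase, rose from 70.1 to 113 FPKM (0.68), and Ccne1, the cyclin of S phase entry, from 28.3 to 47.1 FPKM (0.72). The list median in the PGC-1α pair was 0.12.

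**Figure D2:**
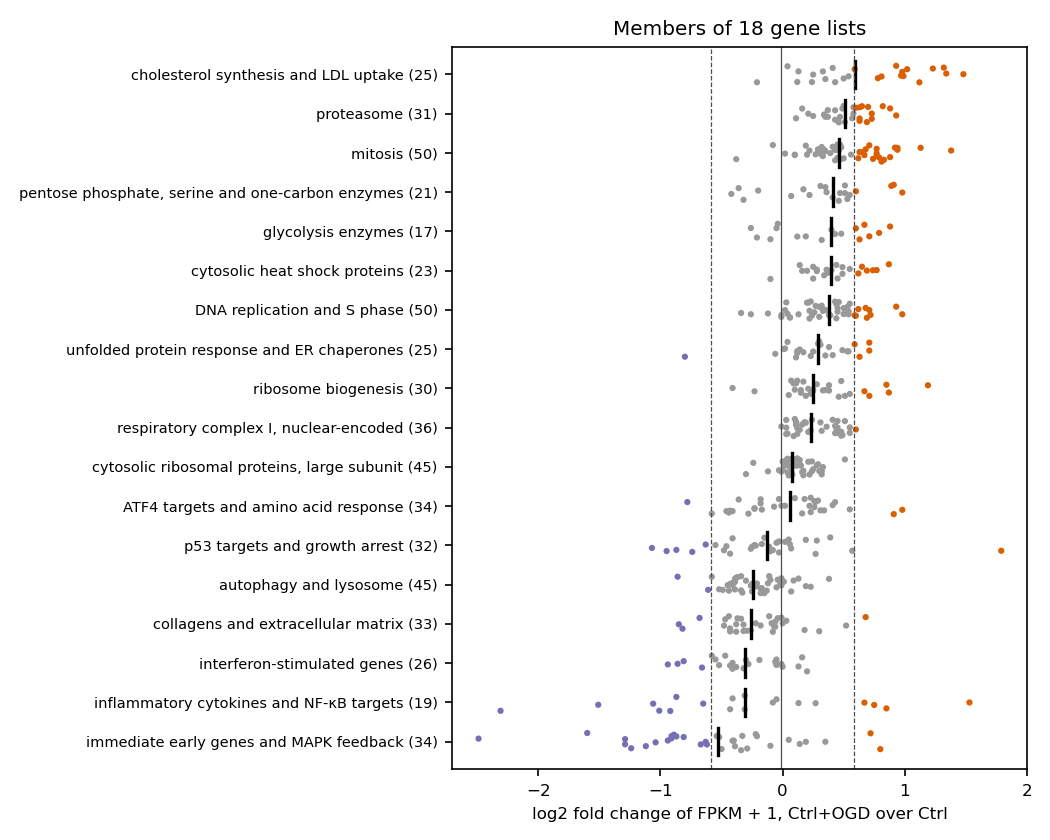
Each point is a gene of 1 of 18 gene lists, placed by its log2 fold change of FPKM + 1 in Ctrl+OGD over Ctrl, with the number of genes compared in brackets. Black bars are list medians, dashed lines mark 1.5-fold, the thin line is the median of all genes (-0.02), and orange and violet points are past 1.5-fold. The medians run from 0.59 for cholesterol synthesis to -0.53 for immediate early genes and MAPK feedback.

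All 31 listed proteasome subunits were compared, and all 31 had a log2 fold change above 0, from 0.11 to 0.93, whereas 48% of all genes were above 0. The median was 0.51, and 12 (38.7%) were higher. Psmd14, the deubiquitinase of the regulatory lid, was at 53.5 FPKM in Ctrl, 95.0 FPKM in Ctrl+OGD, 68.0 FPKM in PGC-1α and 84.9 FPKM in PGC-1α+OGD (0.82). Psmb5, which carries the chymotrypsin-like activity, was at 25.0, 46.8, 43.2 and 44.1 FPKM (0.88), and Psmd13, of the lid, at 20.8, 40.6, 40.1 and 37.0 FPKM (0.93). For Psmb5 and Psmd13 Ctrl was the one low library, since PGC-1α without OGD was already as high as both OGD libraries. Psmd7, among the more abundant, rose from 136 to 210 FPKM (0.63). Proteasome genes are abundant (median level 95.1 FPKM), and all genes averaging 20 to 100 FPKM and at least 100 FPKM had medians of 0.08 and 0.18. The median transcript of the list is 1440 bases long, and with the trend in length and GC content removed the list median was 0.48. In the PGC-1α pair it was 0.18, with 28 genes above 0 and 0 higher.

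Of 23 genes of cytosolic heat shock proteins compared, 6 (26.1%) were higher and 0 lower, with a median of 0.40. Hspa8, the constitutive HSC70, was at 212 FPKM in Ctrl, 326 FPKM in Ctrl+OGD, 277 FPKM in PGC-1α and 336 FPKM in PGC-1α+OGD (0.62 summed, 3.02 by its highest transcript). Hsph1, its nucleotide exchange factor, was at 24.5, 45.4, 35.2 and 43.5 FPKM (0.87). Fkbp4, a co-chaperone of HSP90 whose promoter is printed above, rose from 87.7 to 148 FPKM (0.74), and Dnaja1, an HSP40, from 81.4 to 140 FPKM (0.77). Hsp90aa1, the inducible HSP90, is uncertain, at 200 FPKM in Ctrl and 322 FPKM in Ctrl+OGD after summing (0.69), but with a log2 fold change of -1.78 by its highest transcript. The most abundant heat shock gene, Hsp90ab1, was at 1251 and 1491 FPKM, a log2 fold change of 0.25. In the list of the unfolded protein response and ER chaperones 4 of 25 genes (16%) were higher and 1 lower, with a median of 0.29. Hspa5, the ER chaperone BiP, stood at 250 FPKM in Ctrl and 377 FPKM in Ctrl+OGD (0.59), Manf, a secreted ER stress protein that shares exons with Rbm15b, at 158 and 259 FPKM (0.71), and Herpud1, of ER-associated degradation, at 29.5 and 46.1 FPKM (0.63, or 0.52 by its highest transcript). Ern1, which encodes the stress sensor IRE1α, was the lower gene, at 17.99 and 9.87 FPKM (-0.80). In the PGC-1α pair none of these 25 genes passed 1.5-fold (0 higher and 0 lower).

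In the ATF4 branch of the stress response 2 of 34 genes (5.88%) were higher and 1 (2.94%) lower in control cells, with a median of 0.06. Both shares were below the 6.2% and 7.71% of all genes. Shmt2, of mitochondrial one-carbon metabolism, rose from 45.2 to 90.2 FPKM (0.98) and Psph, of serine synthesis, from 33.3 to 63.4 FPKM (0.91). Ddit3, which encodes the stress-induced transcription factor CHOP, was at 393 FPKM in Ctrl, 228 FPKM in Ctrl+OGD, 91.8 FPKM in PGC-1α and 212 FPKM in PGC-1α+OGD. It was thus highest in Ctrl and lowest in PGC-1α, with the OGD libraries between, and changed by -0.78 (log2) in control cells and 1.20 in PGC-1α cells. The annotated 3′ ends of Ddit3 and of Mars, the methionyl-tRNA synthetase gene (8.97 and 22.6 FPKM in Ctrl and Ctrl+OGD, 1.25), overlap on opposite strands, and whether counting used strand is not given in the sources used here. Atf4 itself was at 314 and 367 FPKM in Ctrl and Ctrl+OGD (0.22).

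Of 17 glycolysis enzymes compared, 6 (35.3%) were higher and 0 lower in Ctrl+OGD, after 24 h back in oxygen and glucose. The median was 0.40, and 12 were above 0 and 5 below. Ldha, lactate dehydrogenase, was at 91.9 FPKM in Ctrl, 170 FPKM in Ctrl+OGD, 149 FPKM in PGC-1α and 161 FPKM in PGC-1α+OGD (0.88 over its 12 summed transcripts, 5.35 by the highest one). Tpi1, triose phosphate isomerase, was at 79.3, 130, 123 and 117 FPKM (0.71), Pgk1, phosphoglycerate kinase, at 89.2, 142, 135 and 150 FPKM (0.67), and Pkm, pyruvate kinase, which shares exons with Gm49759, at 183, 277, 256 and 279 FPKM (0.60, or 0.34 by its highest transcript). In all 4 of these genes Ctrl was low and the other 3 libraries were close to each other, and the median of the list in the PGC-1α pair was 0.00. Other targets of HIF showed no common direction. Outside glycolysis 4 of 32 (12.5%) were higher and 1 (3.12%) lower, against 6.2% and 7.71% of all genes, with a median of 0.11. Pfkfb4, which sets the level of a glycolytic activator, was at 1.84, 5.00, 1.03 and 4.51 FPKM (1.08 in control and 1.44 in PGC-1α cells), higher with OGD in both. P4ha2, a collagen prolyl hydroxylase, rose from 4.85 to 9.18 FPKM (0.80), while Angptl4, a secreted inhibitor of lipoprotein lipase, fell from 38.9 to 16.6 FPKM (-1.18).

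Enzymes of the pentose phosphate, serine and one-carbon pathways had a median of 0.41. Of 21 compared, 4 (19%) were higher and 0 lower, against 6.2% and 7.71% of all genes. Pgd, of the oxidative pentose phosphate steps, rose from 25.0 to 46.9 FPKM (0.89), and G6pdx, the enzyme that opens this branch, from 43.8 to 66.8 FPKM (0.60). Both supply NADPH and are also listed among the targets of the antioxidant factor NRF2. In that list 7 of 35 genes (20%) were higher and 1 (2.86%) lower, with a median of 0.22. With the trend in length and GC content removed the median was 0.11. In the PGC-1α pair 0 were higher and 1 lower, with a median of 0.09. Ftl1, the ferritin light chain, was at 214 FPKM in Ctrl, 444 FPKM in Ctrl+OGD, 401 FPKM in PGC-1α and 470 FPKM in PGC-1α+OGD (1.05). Its partner Fth1, the heavy chain and the most abundant gene of the list, was at 1557, 1231, 1316 and 1111 FPKM (-0.34). Txn1, thioredoxin, rose from 123 to 200 FPKM (0.69). Osgin1, an oxidative stress-induced growth inhibitor, was the lower gene, from 9.74 to 1.28 FPKM (-2.24). Genes of ferritin and other families with pseudogenes may share reads that cannot be separated in these values.

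Nuclear-encoded subunits of the respiratory chain lay slightly above 0 as whole groups in control cells. Of all genes, 48% were above 0 and 6.2% were higher. In complex I 35 of 36 subunits were above 0 with a median of 0.24, and 1 (2.78%) was higher. For complexes II and III the median was 0.27, with 14 of 14 above 0 and 1 (7.14%) higher. For cytochrome c oxidase it was 0.19 (10 of 13 above 0, 1 or 7.69% higher). For ATP synthase it was 0.27 (16 of 16 above 0, 3 or 18.8% higher). In the PGC-1α pair the medians, in this order, were 0.01, -0.02, 0.05 and 0.02. There 19 of 36, 5 of 14, 7 of 13 and 8 of 16 were above 0. The higher gene listed under complexes II and III was Cycs, which encodes cytochrome c and not a subunit of either complex. These transcripts are short, and with the trend in length and GC content removed the medians were 0.10, 0.23, 0.03 and 0.12. They are also abundant, and all genes averaging 20 to 100 FPKM and at least 100 FPKM had medians of 0.08 and 0.18. Cox5a, a subunit of cytochrome c oxidase, was at 23.8 FPKM in Ctrl, 80.01 FPKM in Ctrl+OGD, 60.2 FPKM in PGC-1α and 66.0 FPKM in PGC-1α+OGD (1.71). Cycs, cytochrome c, was at 56.7, 103, 107 and 130 FPKM (0.85), and Atp5o, of the ATP synthase stalk, which shares exons with Donson, at 70.8, 126, 134 and 139 FPKM (0.83). Ctrl was again the one low library in these 3 genes. The 13 subunits encoded by the mitochondrial genome had a median of 0.12, with 0 higher and 0 lower. Among citrate cycle and pyruvate enzymes 3 of 30 (10%) were higher and 2 (6.67%) lower, against 6.2% and 7.71% of all genes. Idh3a, of isocitrate dehydrogenase, rose from 33.9 to 55.3 FPKM (0.69). Pcx, pyruvate carboxylase, fell from 10.8 to 5.73 FPKM (-0.81 summed, -2.76 by its highest transcript). Regulators of mitochondrial biogenesis had a median of -0.21, with 1 of 15 (6.67%) higher and 2 (13.3%) lower. Ppargc1a was 1 of the 2 lower genes (-0.78), at only 0.900 and 0.103 FPKM in Ctrl and Ctrl+OGD. Its mean reached 1 FPKM only through the PGC-1α libraries, in which it is overexpressed. The higher one was Pprc1, a relative of PGC-1α, at 7.42, 13.2, 7.24 and 11.5 FPKM (0.75 in control and 0.60 in PGC-1α cells).

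Among genes of protein synthesis, those for assembly of the ribosome had a higher median than those for its structural proteins. Ribosome biogenesis genes had a median of 0.25, with 5 of 30 higher and 0 lower. Mybbp1a, a nucleolar protein of ribosomal RNA synthesis, was at 26.1, 60.8, 29.9 and 66.3 FPKM (1.19 in control and 1.12 in PGC-1α cells), high in both OGD libraries. Ribosomal proteins of the large and small subunit had medians of 0.08 and 0.10, and 0 of 45 and 0 of 32 passed 1.5-fold. Aminoacyl-tRNA synthetases had a median of 0.22, with 2 of 20 (10%) higher, against 6.2% of all genes. These were Mars and Farsa, the latter at 0.605 FPKM in Ctrl and 5.68 FPKM in Ctrl+OGD (2.06).

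Immediate early genes and the feedback inhibitors of MAPK signaling had the lowest median of the gene lists. Of 42 listed genes, 34 were compared, and 16 (47.1%) were lower and 2 higher against the 7.71% and 6.2% of all genes, with a median of -0.53. Egr1, a zinc finger factor induced by growth factors and by neuronal activity, was at 27.9 FPKM in Ctrl, 4.14 FPKM in Ctrl+OGD, 5.49 FPKM in PGC-1α and 3.45 FPKM in PGC-1α+OGD (-2.49). Dusp6, the phosphatase that inactivates ERK, was at 39.8, 15.6, 17.2 and 15.1 FPKM (-1.29). In both genes Ctrl was high and the other 3 libraries were low. Other members were low in both OGD libraries. Junb and Fosl2, subunits of the AP-1 factor, were at 35.5, 14.4, 22.6 and 12.9 FPKM (-1.24) and at 23.9, 11.1, 21.3 and 11.6 FPKM (-1.04). Dusp5, a nuclear ERK phosphatase whose promoter holds the CArG boxes printed above, was at 5.08, 1.01, 3.54 and 1.43 FPKM (-1.60). Spry4, an inhibitor of receptor tyrosine kinase signaling, was at 16.7, 6.22, 10.5 and 6.53 FPKM (-1.29). Arc, a gene of synaptic plasticity, fell from 12.3 to 5.94 FPKM (-0.94). The 2 higher genes were Klf10, a TGF-β-inducible factor, from 15.6 to 26.3 FPKM (0.72), and the phosphatase gene Dusp14, from 3.36 to 6.60 FPKM (0.80, but 0.27 by its highest transcript). Myc, a driver of growth, was at 77.5, 49.8, 33.0 and 51.5 FPKM, a log2 fold change of -0.63 in control cells and 0.63 in PGC-1α cells, and of 0.05 in control cells by its highest transcript. In the PGC-1α pair, where 5.22% of all genes were lower, 8 of the 34 were lower and 1 higher, with a median of -0.25, and 7 were lower in both pairs.

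**Figure D3:**
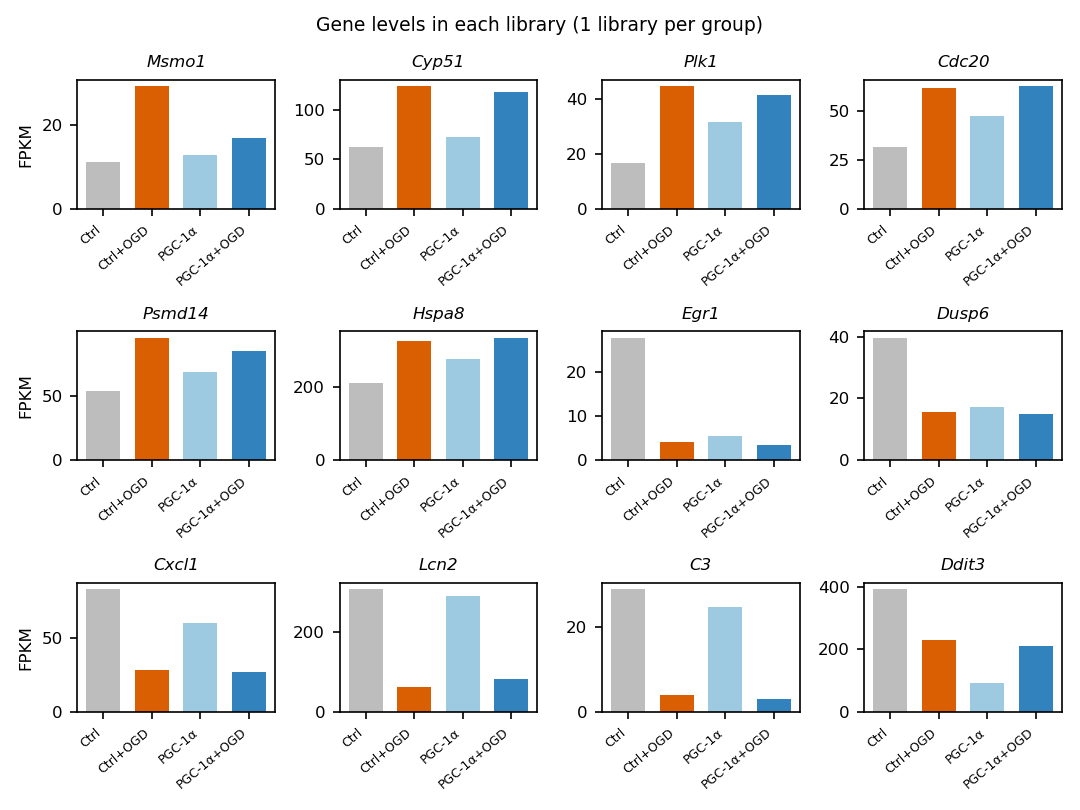
Bars give the FPKM of 12 genes in Ctrl, Ctrl+OGD, PGC-1α and PGC-1α+OGD, 1 library each, on linear axes that start at 0 and differ between panels. Lcn2, C3 and Cxcl1 are low in both OGD libraries, Egr1 and Dusp6 are high in Ctrl alone (27.9 and 39.8 FPKM), and Ddit3 moves in opposite directions in the pairs.

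In the list of inflammatory cytokines and NF-κB targets 7 of 19 genes compared were lower (36.8%) and 4 higher (21.1%), with a median of -0.31. Lcn2, lipocalin 2, a secreted acute phase protein that binds bacterial siderophores, was at 307 FPKM in Ctrl, 61.0 FPKM in Ctrl+OGD, 291 FPKM in PGC-1α and 81.4 FPKM in PGC-1α+OGD. Both OGD libraries were far below both libraries without OGD, and the log2 fold changes were -2.31 and -1.82. Cxcl1, a chemokine that attracts neutrophils, was at 83.7, 28.7, 60.4 and 27.0 FPKM (-1.51 and -1.13). C3, the central complement component, and Cp, the copper ferroxidase ceruloplasmin, are further acute phase genes that are named because they were, like Lcn2, among the 20 largest falls of all genes. C3 was at 29.0, 3.90, 24.9 and 2.94 FPKM (-2.61 and -2.72) and Cp at 54.6, 9.29, 33.6 and 9.67 FPKM (-2.43 and -1.70). Relb, an NF-κB subunit, fell from 7.27 to 2.96 FPKM (-1.06). The direction was not shared by all, because Ccl2, a monocyte chemokine, rose from 18.9 to 32.5 FPKM (0.75, against -0.27 in PGC-1α cells). Tnfaip2 rose from 8.46 to 26.4 FPKM after summing (1.53), with -0.17 by its highest transcript, and is uncertain. Of 36 listed genes, 13 have no row in the table and 4 were below the filter.

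Interferon-stimulated genes had the same median, -0.31, with 4 of 26 (15.4%) lower, against 7.71% of all genes, and 0 higher. Below 0 were 22 of 26. Irf1, an interferon-induced transcription factor, fell from 18.6 to 9.24 FPKM (-0.94, or -0.45 by its highest transcript) and Parp14, which shares exons with Gm49730, from 5.01 to 2.43 FPKM (-0.81). Iigp1, an interferon-inducible GTPase outside the list and among the 20 largest falls, was at 9.20, 1.11, 8.43 and 1.503 FPKM (-2.27 and -1.91), low in both OGD libraries. The median of this list in the PGC-1α pair was -0.22 with 0 lower.

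Of the 3723 genes that averaged 20 FPKM or more, 135 were lower in control cells and 92 in PGC-1α cells, and 32 were lower in both (23.7% and 34.8%). The genes named next were taken from these 32 after their values were seen, as examples of cytokine signaling, caspases and secreted proteins. Osmr, the oncostatin M receptor, was at 81.2, 38.6, 79.9 and 44.5 FPKM in Ctrl, Ctrl+OGD, PGC-1α and PGC-1α+OGD (-1.05 and -0.83). Stat3, the transcription factor it activates, was at 46.8, 23.2, 42.3 and 24.1 FPKM (-0.99 and -0.79), and Cebpd, an acute phase transcription factor, at 51.1, 18.9, 43.7 and 20.04 FPKM (-1.39 and -1.09). In these 3 genes the libraries with OGD were near each other. Casp4, an inflammatory caspase, was at 64.9, 16.8, 39.1 and 19.9 FPKM (-1.89 and -0.94). Rarres2, the precursor of the chemoattractant chemerin, was at 148, 42.4, 206 and 55.1 FPKM (-1.78 and -1.88). Slpi, a secreted protease inhibitor, was at 44.0, 16.9, 47.5 and 18.5 FPKM (-1.33 and -1.31). All 6 genes were lower with OGD in both pairs by the way they were chosen, so this is not a separate result. Of the 250 genes higher at this level in control cells and 86 in PGC-1α cells, 21 were higher in both (8.4% and 24.4%). They included Fabp5, a fatty acid carrier, at 17.8, 49.2, 26.1 and 45.9 FPKM (1.42 and 0.79), and Exosc8, of the RNA exosome, at 14.4, 35.2, 13.8 and 33.4 FPKM (1.24 and 1.21).

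Matrix genes passed the threshold about as often as all genes, lysosome genes less often, and p53 targets and growth arrest genes were more often lower. Of 33 genes of collagens and extracellular matrix, 27 were below 0 with a median of -0.26, and 3 (9.09%) were lower and 1 higher against the 7.71% and 6.2% of all genes. Fn1, fibronectin, fell from 136 to 76.6 FPKM (-0.82), and Lamc1, a laminin chain, from 106 to 58.2 FPKM (-0.85, or -0.12 by its highest transcript). The transcripts of this list are long, with a median of 5564 bases, and its median was -0.16 with the trend in length and GC content removed. Autophagy and lysosome genes had a median of -0.24, with 38 of 45 below 0, 2 (4.44%) lower and 0 higher, and -0.23 with the trend removed. Grn, progranulin, was at 131, 71.5, 84.6 and 79.2 FPKM (-0.86), and the list median in the PGC-1α pair was -0.05. Among p53 targets 5 of 32 (15.6%) were lower and 1 (3.12%) higher, with a median of -0.13. The higher gene was Mdm2, the ubiquitin ligase of p53, at 2.98, 12.7, 3.002 and 6.08 FPKM (1.79 in control and 0.82 in PGC-1α cells). Fas, a death receptor, was lower in both pairs, at 9.19, 3.86, 7.11 and 2.86 FPKM (-1.07 in each). Bbc3 and Bcl2l11, which encode the pro-apoptotic proteins PUMA and BIM, fell from 7.89 to 4.33 FPKM (-0.74) and from 9.42 to 4.02 FPKM (-1.05).

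The largest single differences were mostly those of genes with low values, where small differences in reads weigh most. Of the 20 largest rises 0 averaged 20 FPKM or more, and of the 20 largest falls 2 did. Atp11b, a phospholipid flippase, was at 1.03, 18.6, 16.6 and 9.46 FPKM, the largest rise (3.27), and Necap2, of clathrin-coated vesicles, at 0.347, 11.6, 9.25 and 12.8 FPKM (3.23). Both were low in Ctrl alone. In 13 of the 20 largest rises the PGC-1α library without OGD lay nearer to Ctrl+OGD than to Ctrl. Kpna1, an importin, and Dvl2, of Wnt signaling, which shares exons with Mir324, were high in both OGD libraries, at 3.72, 19.3, 4.17 and 20.7 FPKM (2.103 and 2.070) and at 1.08, 12.8, 2.95 and 12.1 FPKM (2.73 and 1.73). Xylb, xylulokinase, was listed at 0 in Ctrl and was at 7.48 FPKM in Ctrl+OGD. Among the falls, Rnf26, a ubiquitin ligase gene that shares exons with Gm49380, was at 14.8, 0.00615, 21.4 and 0.00979 FPKM (-3.97 and -4.47), and Arhgap30, a gene of a GTPase-activating protein, was at 9.45 and 6.42 FPKM in Ctrl and PGC-1α and listed at 0 in both OGD libraries. Both have 1 deposited transcript. The largest fall of all was that of Gm20388, a readthrough gene that shares exons with Galnt2 and Usp10, at 19.3 FPKM in Ctrl, 0.0138 FPKM in Ctrl+OGD and listed at 0 in both PGC-1α libraries. In 4 of the 20 largest falls the PGC-1α library lay nearer to Ctrl+OGD. For these counts of nearness no share over all genes is given, so they cannot be set against a background.

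**Figure D4:**
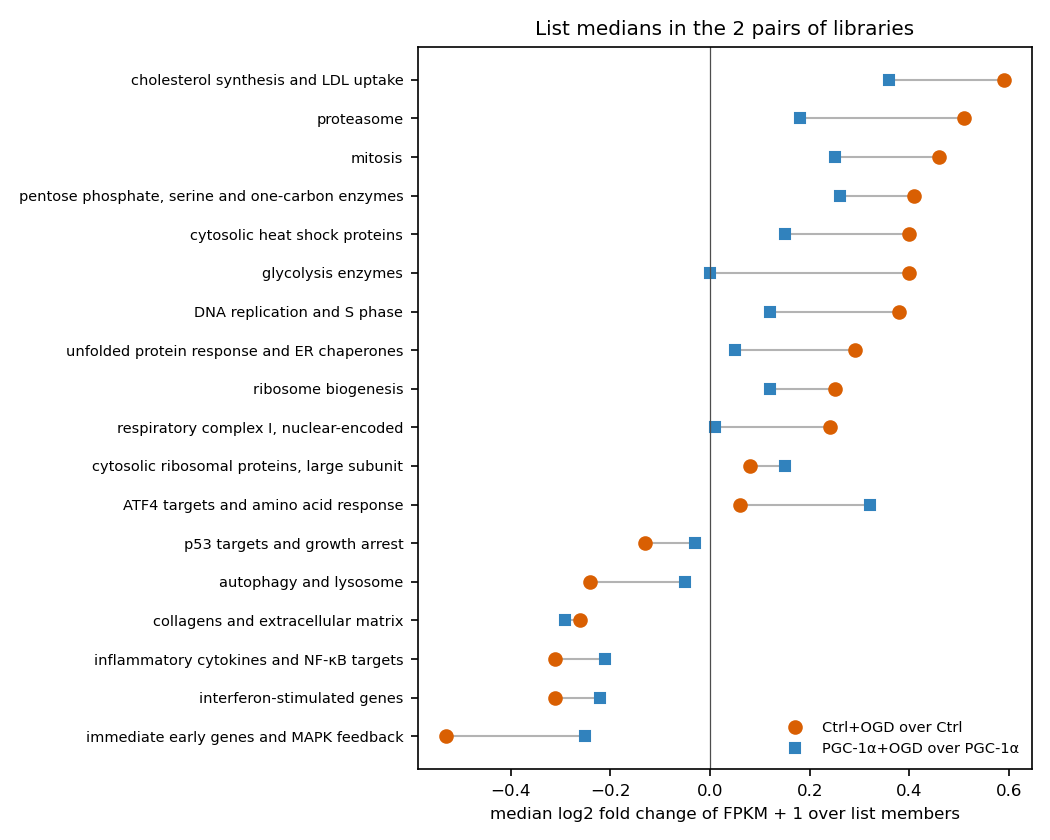
For the same 18 gene lists, orange circles give the median log2 fold change of FPKM + 1 in Ctrl+OGD over Ctrl and blue squares that in PGC-1α+OGD over PGC-1α, which share no library. Glycolysis falls from 0.40 to 0.00 and ATF4 targets run the other way, from 0.06 to 0.32, while the medians of inflammatory, interferon and matrix genes are below 0 in both pairs.

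Over all genes, the pair of PGC-1α libraries held fewer differences, with 405 higher (3.82%) and 553 lower (5.22%). Of the 657 genes higher in control cells, 81 were also higher in PGC-1α cells, which is 12.3% of the former and 20% of the latter, and 52 were lower there. Of the 818 lower genes, 185 were also lower in PGC-1α cells (22.6% and 33.5%), and 49 were higher. The sign was the same for 68.5% of the higher and 72.6% of the lower genes. The PGC-1α library without OGD lay nearer to Ctrl+OGD than to Ctrl in 57.1% of the higher and 42.3% of the lower genes. These genes were chosen on the difference between Ctrl and Ctrl+OGD. The share over all genes is not given here, so these shares cannot be set against a background. With 1 library a group, a difference made by OGD and one particular to the Ctrl library cannot be told apart where the other pair does not show it.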

How the data were processed

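The 4 libraries were made from total RNA with a stranded kit and sequenced as paired reads. Per the labels and the submitters' processing notes, the authors aligned reads to GRCm38 with HISAT2 2.1.0. The deposited table gives values per transcript, whose unit it does not name. They were taken as FPKM, because they are never negative and the column totals differ, from 331892 to 353381. The program behind the deposited FPKM values, its annotation, its strand setting and its filter are not given in the sources used here. No library had more than 31.1% of its low values within 0.1 of a whole step, so depth is unknown and no intervals can be given. Every transcript reaches at least 0.500 FPKM in 1 or more libraries, so a gene without a row may be low or filtered.

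Of 25889 transcripts, 25822 (99.7%) were matched by identifier without version to GENCODE release M21 and 67 were not. Transcripts were summed per symbol, genes whose mean over the 4 libraries reached 1 FPKM were kept, and log2(FPKM + 1) was compared without further scaling. The 1.5-fold threshold is the fold change criterion of the study's methods without its p value. No test was run, since each group has 1 library. The members of 48 gene lists were written from general knowledge, and lists and genes were chosen with earlier results of these data known. Named genes are Ppargc1a, markers, the 20 largest rises and the 20 largest falls, up to 4 members per list with the largest change past 1.5-fold, the most abundant members, and genes that share exons with them, as far as they are described. Further list members past 1.5-fold, members below 0, and genes taken from those that differed in both pairs were named after their values were seen. Hspa8, Dnaja1, Psmb5, Ftl1, S100a4, Slpi and Pdgfra share exons with small RNA or predicted genes (Snord14c, Snord14d, Snord14e, Mir207, Mir686, Gm22133, Gm42674, Mir7678, Mir7025). Reads shared with pseudogenes, paralogs or antisense genes cannot be separated.

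Promoters came from RefSeq (GRCm38.p6) for the genes with a RefSeq start within 500 bases of the start of their most abundant transcript. Alternatives were pseudocounts of 0.1 and 0.01, no filter, a minimum mean of 5, scaling by median ratio, by upper quartile and to equal column totals, the highest transcript per gene, genes with 1 deposited transcript, 2-fold, and values with the dependence on length (log2) and GC content removed by a linear fit. A minimum mean of 20 was added after the data were seen. The work used numpy 2.4.6, matplotlib 3.10.9 and pandas 2.3.3 in Python 3.11.15, and the comparison was tested on simulated data. Some members of the sterol list are not reported here by name.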

Additional observations from a re-analysis of the deposited data

Results flagged for a closer look

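Among the genes named here that passed 1.5-fold in both pairs, 3 had opposite signs in control and PGC-1α cells. So did the medians of 2 lists, among lists with medians at least 0.1 from 0 in both pairs. Lists with smaller medians of opposite sign are left out. Over all genes, 52 were higher in control and lower in PGC-1α cells, and 49 the reverse. These differences were not tested, because each group has 1 library. Ddit3 had a log2 fold change of -0.78 in Ctrl+OGD over Ctrl and of 1.20 in PGC-1α+OGD over PGC-1α. Myc stood at -0.63 and 0.63 in these pairs, and the flippase gene Atp11b at 3.27 and -0.75. The median of HIF targets outside glycolysis was 0.11 in control cells and -0.24 in PGC-1α cells. For regulators of mitochondrial biogenesis it was -0.21 in control cells and 0.11 in PGC-1α cells, but 0.06 in control cells with a mean of at least 5 FPKM. In control cells 5 of 32 and 3 of 15 genes of these lists passed 1.5-fold. Higher were 12.5% and 6.67% and lower 3.12% and 13.3%, against 6.2% and 7.71% of all genes. The 15 include Ppargc1a, the overexpressed gene, which was below 1 FPKM in both control libraries.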

How the results depend on the processing

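With the values as deposited 657 genes were higher and 818 lower. The counts moved by more than 1.5 times with the highest transcript per gene (1001 higher of 10437 compared) and at 2-fold (158 and 206 of 10604). They also moved in settings that compared fewer genes, where a lower count follows in part from the smaller set. These were genes with 1 deposited transcript (243 higher and 278 lower of 4199) and a mean of at least 5 (489 lower of 8218). A mean of at least 20, chosen after seeing the data, left 250 and 135 of 3723. Of the genes called with the highest transcript, 554 higher and 635 lower ones were the same genes as after summing. With the other scalings, filters and pseudocounts higher genes numbered from 498 to 854 and lower genes from 739 to 1172. The sterol median moved to 0.82 with a pseudocount of 0.1. The median of mitochondrially encoded subunits was -0.03 and that of small-subunit ribosomal proteins -0.02 with the length and GC trend removed, and that of mitochondrial biogenesis regulators was 0.06 with a mean of at least 5. Hsp90aa1 (-1.78), Fasn (-0.03), Myc (0.05) and Tnfaip2 (-0.17) had the other sign by their highest transcript. Of 112 named genes past 1.5-fold, 112 stayed past it with a pseudocount of 0.1, 111 with median ratio scaling, 108 with upper quartile scaling, 103 with equal column totals, 107 with the trend removed and 100 by the highest transcript. Of all genes past 1.5-fold, 44.5% were higher as deposited and 31.2% with equal column totals, which lowered the median of all genes from -0.02 to -0.10. The cause of these shifts was not tested. No paired analysis was possible because Ctrl and Ctrl+OGD form a single pair, which gives no spread within control cells. Unknown depth limits most the genes of 1 to 5 FPKM, 19.6% of which passed 1.5-fold against 10.1% of those of 20 to 100 FPKM.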

Other observations

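Further gene groups showed smaller or mixed differences between Ctrl+OGD and Ctrl. Their shares are to be read against the 6.2% of all genes that were higher and the 7.71% that were lower. Targets of YAP and SRF and actin genes had a median of 0.25 on the log2 scale, with 4 of 30 (13.3%) higher and 0 lower. Cnn3, a calponin, stood at 30.5 FPKM in Ctrl and 57.2 FPKM in Ctrl+OGD (0.88), and Tpm1, tropomyosin, at 109 and 177 FPKM (0.69). Fatty acid synthesis genes had a median of 0.24, with 2 of 18 (11.1%) higher and 1 (5.56%) lower. Fasn, fatty acid synthase, was at 22.6 and 36.0 FPKM (0.65, but -0.03 by its highest transcript). Fatty acid oxidation genes stayed near 0 (median 0.03, 0 higher and 1 lower of 21, or 4.76%), and the lower gene was Acsl1, an acyl-CoA synthetase (-0.71). Genes of glucose, amino acid and lactate transport had a median of -0.23 with 1 of 16 (6.25%) higher. This was Slc7a6, an amino acid exchanger, at 5.56 and 14.3 FPKM (1.22).

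Genes of mitochondrial fusion, fission and mitophagy had a median of 0.10 (2 of 15, 13.3%, higher). Mitochondrial antioxidants and uncoupling proteins had 0.13 (2 of 11, 18.2%, higher and 1, 9.09%, lower). For ferroptosis and iron genes it was 0.06 (1 of 20, 5%, higher and 1, 5%, lower). The higher antioxidant genes were Gpx1, glutathione peroxidase, at 32.5 and 54.6 FPKM (0.73, or 0.54 by its highest transcript), and Glrx5, of iron-sulfur cluster assembly (0.84). The BCL2 family had a median of 0.08 with 2 of 13 (15.4%) lower, and cyclin D and G1 control genes 0.08 with 2 of 15 (13.3%) higher. Among the latter was Ccnd3, cyclin D3, at 35.6 and 65.3 FPKM (0.85 after summing 9 transcripts and 4.84 by the highest one). Histone genes had a median of 0.13, with 2 of 12 (16.7%) higher and 2 (16.7%) lower, and integrins -0.01 with 1 of 7 (14.3%) higher.

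Among markers of other cell types, S100a4, a calcium-binding protein of mesenchymal cells, stood out by its level, at 316 FPKM in Ctrl and 702 FPKM in Ctrl+OGD (1.15), against 378 and 437 FPKM in the PGC-1α pair. Fibroblast and mesenchymal markers had a median of -0.06 (8 of 13 compared, 1 higher and 2 lower). Neural progenitor markers had a median of -0.45, with all 5 of those compared below 0 and 1 lower, Hes1, a Notch target, at 16.9 and 8.99 FPKM (-0.84). Astrocyte markers had a median of -0.32 over 4 genes, with the gap junction gene Gja1 higher (1.08) and Sox9 lower (-1.08). Oligodendrocyte markers had a median of -0.01 over 4 genes with 1 lower, Pdgfra (-0.65). Of 10 microglia markers 1 was compared (Cd68, 0.33), and of 7 endothelial markers 0. Of 18 cholinergic and neurotrophic genes 4 were compared, with 1 lower, Bdnf, a neurotrophin, at 6.96 and 4.30 FPKM (-0.59, or -0.55 by its highest transcript). The neuron markers and the genes of glutamate receptors and transporters each had 2 genes compared, with medians of 0.08 and -0.00.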
